A study of Mus musculus with 42 samples.

Results

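The enzymes that bring pyruvate into mitochondria and turn the tricarboxylic acid (TCA) cycle were followed as a set of 32 genes, a list given by name and drawn up with earlier results of these data known. Both deposited count tables held all 32, among 24421 genes for whole brain and 53546 genes for cortex and hippocampus. The set covers 2 subunits of the mitochondrial pyruvate carrier, 5 components of the pyruvate dehydrogenase complex, 4 kinases and 3 phosphatase genes that switch this complex, 15 enzymes of the cycle and its isozymes, and 3 genes by which carbon leaves the cycle. Levels are given in CPM, a gene's count scaled to a common library total, after TMM scaling within each table. The whole-brain and regional tables were made separately, so no level was set across them.

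Microglia, the resident macrophages of the brain, had been enriched on a density gradient and sorted as CD11b+ CD45lo cells, and their RNA was sequenced in bulk as 42 libraries of 11 groups. All mice had a C57BL/6 background. Whole-brain microglia came from wild-type (WT) mice labelled as aged 6 to 12 weeks, with 8 weeks in the library titles, and gave 3 libraries from specific-pathogen-free (SPF) and 5 from germ-free (GF) housing. At 16 weeks, cortical microglia were taken from WT mice that were SPF, GF, or GF with acetate (n = 4 each). At the same age, hippocampal microglia were taken under these 3 conditions from WT mice (n = 4, 3 and 4) and from 5xFAD mice (n = 4, 3 and 4). Acetate was given in the drinking water, for 4 or 8 weeks; the labels describe both lengths and do not tie them to single libraries. 5xFAD mice carry human transgenes with familial Alzheimer mutations driven by the neuronal Thy1 promoter, and none of the groups without that label was described as transgenic.

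Library totals ran from 19329304 to 25366393 counts in whole brain, from 15790383 to 23860490 in cortex and from 5743891 to 22532410 in hippocampus. The shallowest held 5862938 counts in WT SPF hippocampus library 4 and 5743891 counts in 5xFAD SPF hippocampus library FAD_2142. The 7 microglia markers P2ry12, Tmem119, Cx3cr1, Siglech, Csf1r, Aif1 and Itgam summed to between 25543 and 45834 CPM in every library, so all libraries carried the markers of the labelled cell type. A neutrophil list stood at 173 CPM in whole-brain GF library 4, 226 CPM in WT GF hippocampus library WT_532 and 256 CPM in 5xFAD SPF hippocampus library FAD_2153, while the group medians ran from 0 to 0.406 CPM. In such bulk samples, fewer cells of a type and less RNA per cell cannot be told apart.

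Pyruvate made by glycolysis crosses the inner mitochondrial membrane through the Mpc1-Mpc2 carrier, and the pyruvate dehydrogenase complex converts it to acetyl-CoA. Pyruvate dehydrogenase kinases phosphorylate and silence the complex, and the phosphatases reactivate it. Acetyl-CoA joins oxaloacetate to form citrate, and the cycle then passes through isocitrate, alpha-ketoglutarate, succinyl-CoA, succinate, fumarate and malate back to oxaloacetate, reducing the carriers that feed respiration. Acetate enters below the pyruvate dehydrogenase step, as acetyl-CoA. Microglia are known to change their use of glucose and of mitochondrial respiration when activated.

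Few transcripts of these enzymes differed past the threshold in the 18 comparisons. Of the 30 members with enough counts to test, 4 passed an adjusted p of 0.05 (edgeR quasi-likelihood test, Benjamini-Hochberg over all genes tested), each in 1 comparison. Mdh1 was higher in GF than in SPF whole-brain microglia, where 1.99% of all genes tested passed. Idh2 was lower in 5xFAD than in WT microglia of GF hippocampus, where 0.756% passed. Ogdh was lower in hippocampus than in cortex of SPF mice, where 0.718% passed, and Aco1 was lower in hippocampus than in cortex of acetate-treated mice, where 2.38% passed. These were 0.741% of 540 member tests, against 0.824% of the tests of all genes over the same comparisons. At an unadjusted p under 0.05 the member share was 11.1% (60 of 540) and the share of all tests was 10.8%. These shares moved when single libraries were left out. The number of genes called in whole brain, 226, fell to 83, 118 and 101 without SPF library 1, 3 or 4 and to 133 without GF library 4. For 5xFAD against WT in GF hippocampus the 129 genes fell to between 31 and 77 without WT_530, WT_532, FAD_526, FAD_527 or FAD_531. For hippocampus against cortex the 120 genes of SPF mice fell to 0, 0, 23 and 1 without animal 1, 2, 3 or 4, and the 397 with acetate fell to 54, 44 and 17 without WT_518, WT_523 or WT_525. Below, passing a test or the threshold refers to edgeR unless DESeq2 is named.

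The other 14 comparisons had 0 members past the threshold in edgeR, with 0 to 6 members at an unadjusted p under 0.05. The all-gene share past the threshold there was 1.71% for cortex GF against SPF, 0.973% for cortex acetate against GF and 0.364% for cortex acetate against SPF. In WT hippocampus it was 0.727% for GF against SPF, 0.492% for acetate against GF and 0.123% for acetate against SPF. In 5xFAD hippocampus the same 3 comparisons had 1.82%, 0.082% and 0.0527%. It was 0.568% for 5xFAD against WT under SPF, 2.51% for 5xFAD against WT with acetate, 0.0359% for hippocampus against cortex in GF mice, and 0 for the 2 interactions of genotype with condition. DESeq2, the other tool, called 1 member in each of 3 of the 14 and 0 members in the other 11, among them 5xFAD acetate against GF, where it gave an adjusted p for 17 of the 30 members.

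The unadjusted counts can be read beside the same share of all genes. In whole brain 4 of 30 members had an unadjusted p under 0.05, beside 15.3% of all genes. In cortex GF against SPF had 3 (13.8%), acetate against GF 0 (11.3%) and acetate against SPF 2 (7.03%). In WT hippocampus these were 3 (12.6%), 3 (11.7%) and 2 (8.03%), and in 5xFAD hippocampus 4 (11.9%), 2 (7.54%) and 1 (6.72%). For 5xFAD against WT they were 2 under SPF (10.2%), 3 in GF mice (10.6%) and 6 with acetate (14.3%), and for the interactions 1 (5.52%) and 4 (5.3%). Hippocampus against cortex had the most, with 8 members under SPF (13.9%), 4 in GF mice (11.9%) and 8 with acetate (17.9%). Comparisons within a tissue share groups, since the GF libraries stand in both GF against SPF and acetate against GF, so their values are not independent.

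**Figure D1:**
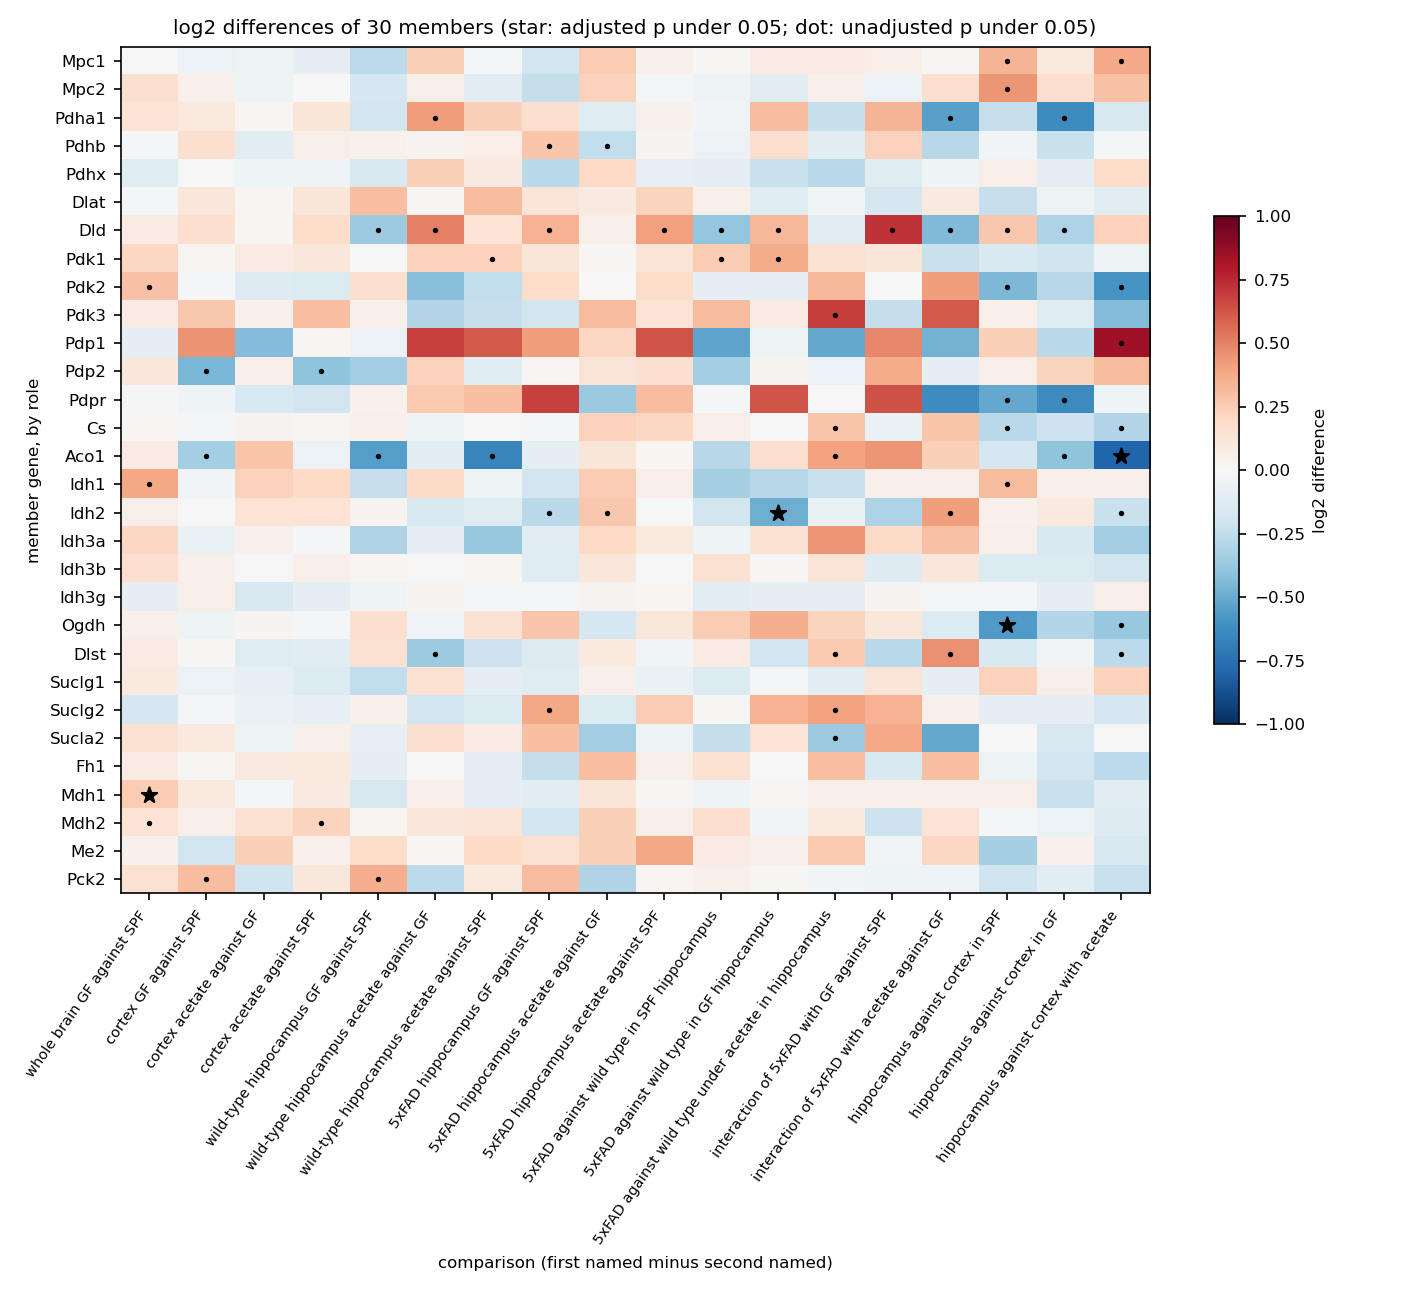
Log2 differences of the 30 tested members (rows, by role) in the 18 comparisons (columns, first named group minus second; for an interaction, the effect in 5xFAD minus that in WT). Colour gives the log2 difference, a star an adjusted p under 0.05 and a dot an unadjusted p under 0.05. The 4 stars are Mdh1, Idh2, Ogdh and Aco1, each in a different column.

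The intervals show how large a change these libraries leave room for. The 95% interval of the fold change lay within 1.5-fold either way in 359 of 540 member tests and within 2-fold in 512. For GF against SPF in whole brain, 28 of 30 members were held within 1.5-fold (53.1% of all genes) and all 30 within 2-fold (75.7%). In cortex the same comparison held 26 members within 1.5-fold (45% of all genes) and 30 within 2-fold (66.8%). In WT hippocampus it held 18 (25.7%) and 30 (49.1%), and in 5xFAD hippocampus 16 (24.7%) and 28 (48.7%). The median distance from the estimate to either end of the interval was 0.25 on the log2 scale for members in whole brain (0.36 for all genes) and 0.33 in WT hippocampus (0.68 for all genes). Interval width depends on a gene's counts, and the shares of all genes include genes just above the count filter. Members were not set against genes of like counts, so these shares do not show that the members are unusually stable. Member medians were close to 0, at log2 0.08, 0.01, -0.02 and -0.01 for GF against SPF in whole brain, cortex, WT hippocampus and 5xFAD hippocampus, beside 0.003, -0.001, 0.000 and -0.003 for all genes. Signs were unevenly split in some comparisons. Between regions 17 of the 30 members had a negative difference in SPF mice, 23 in GF mice and 20 with acetate. Their medians were log2 -0.02, -0.13 and -0.12, against -0.009, -0.036 and -0.057 for all genes. Positive differences numbered 22 for GF against SPF in whole brain. In 5xFAD hippocampus they numbered 23 for acetate against GF and 23 for acetate against SPF. The share of all genes with each sign was not counted.

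**Figure D2:**
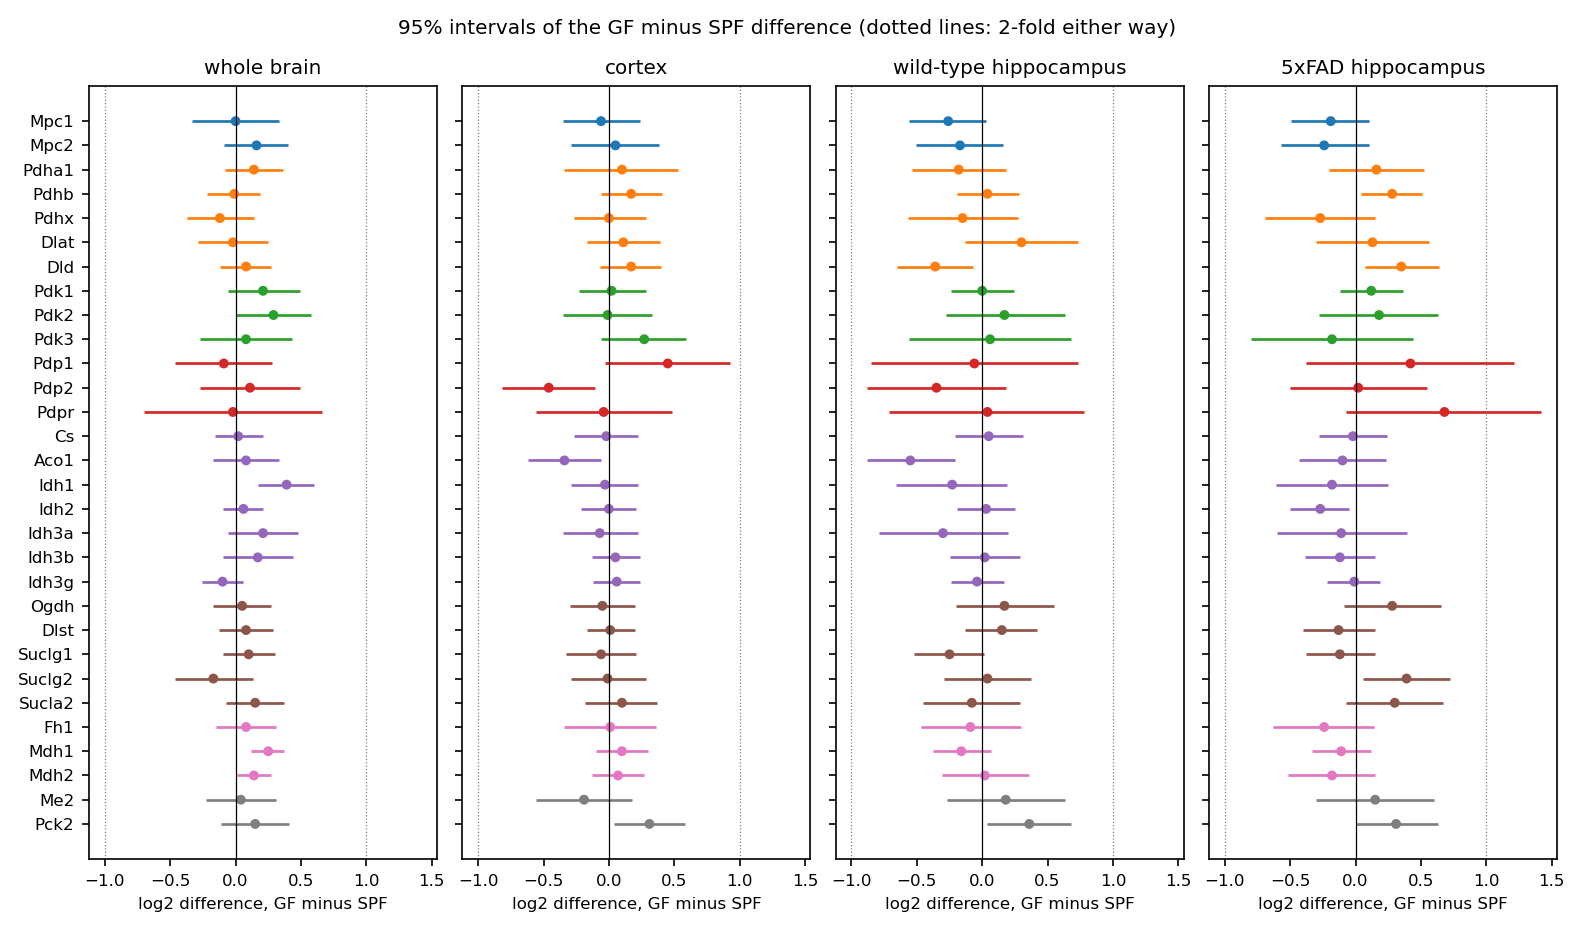
GF minus SPF log2 difference of each tested member with its 95% interval (horizontal bars) in whole brain, cortex, WT hippocampus and 5xFAD hippocampus, from left to right; dotted lines mark 2-fold either way and colours the role. Whole-brain bars are the shortest and hippocampal bars the longest, and only bars of Pdp1 and Pdpr in 5xFAD hippocampus pass a dotted line.

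Levels between genes were compared only per kilobase of the principal transcript (GENCODE M21 annotation of GRCm38). In cortex the gamma subunit of the NAD-linked isocitrate dehydrogenase, Idh3g, and the NADP-linked mitochondrial isozyme Idh2 stood highest, at 173 ± 12.9 and 131 ± 12.7 CPM per kilobase (SD, n = 12). They also led in hippocampus, at 166 ± 12.9 and 118 ± 15.5 CPM per kilobase (SD, n = 22). Mdh2 and Mdh1, the mitochondrial and cytosolic malate dehydrogenases, followed in both regions at 81.9 and 77.1 CPM per kilobase in cortex, which differed by less than their SDs of 7.94 and 6.47. In whole brain Mdh1 (151 ± 14.4), Mdh2 (130 ± 7.51), Idh2 (115 ± 7.21) and Idh3g (107 ± 7.22 CPM per kilobase, SD, n = 8) were the 4 highest. When exon-union lengths replaced the transcript lengths, the 4 leading genes were the same in each tissue, and their order within the 4 changed. At the low end stood the phosphatase genes Pdp1, Pdp2 and Pdpr, with 2.37, 3.19 and 5.95 CPM per kilobase in cortex. Below them, the kinase Pdk4 and the cytosolic malic enzyme Me1 were near 0.

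**Figure D3:**
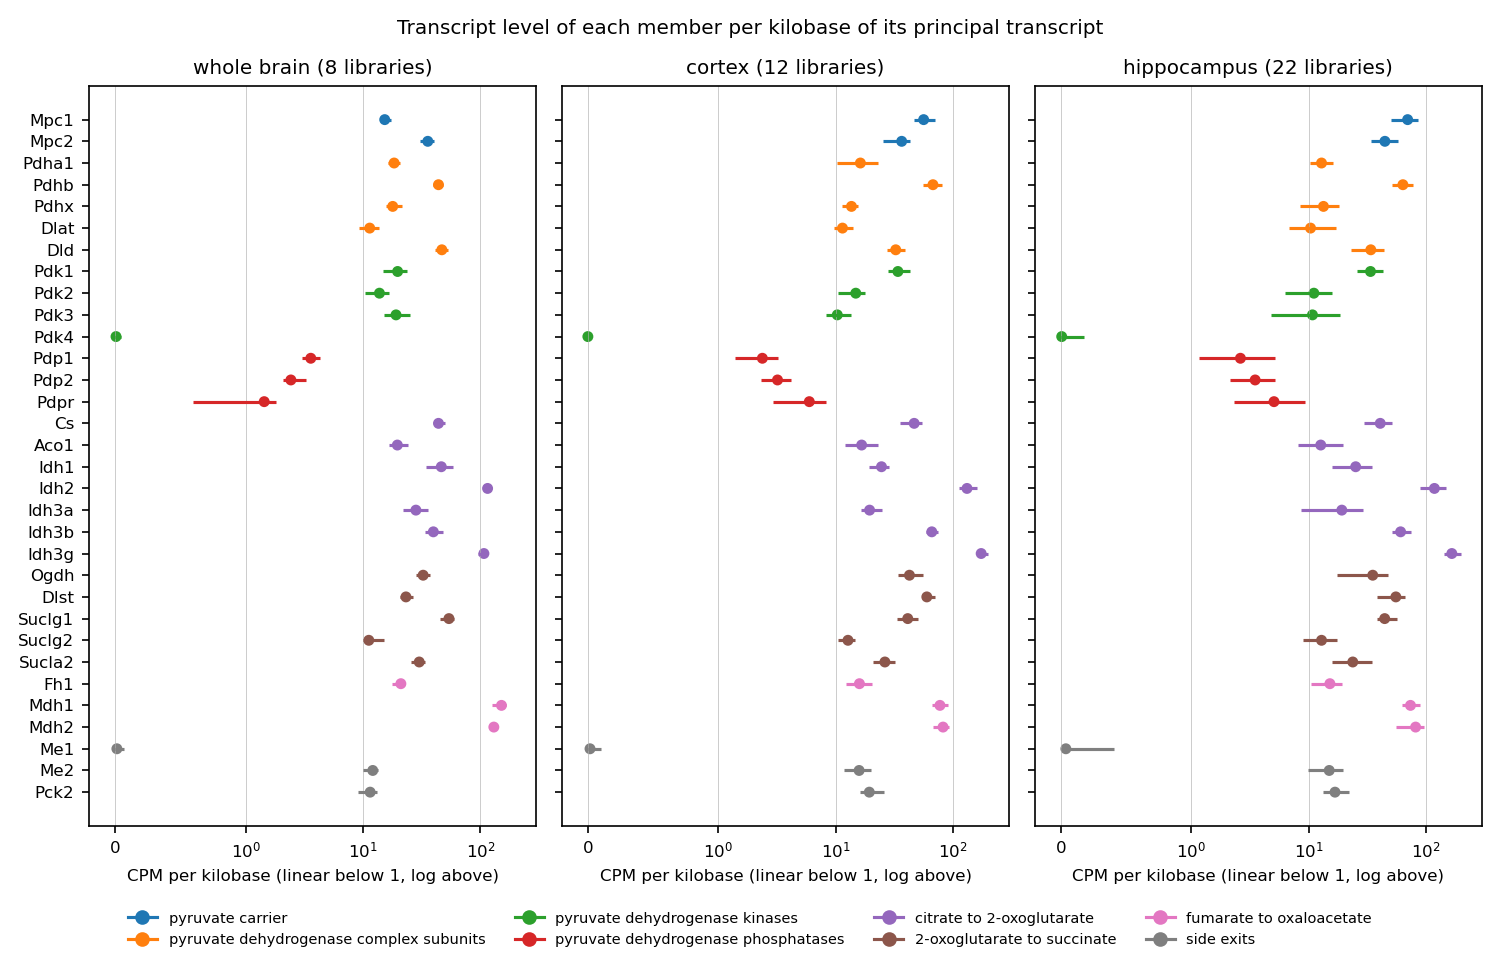
Level of each of the 32 members in CPM per kilobase of principal transcript (horizontal axis, linear below 1 and logarithmic above), as the mean (point) and the lowest and highest library (bar), in whole brain, cortex and hippocampus; colours give the role. Idh3g, Idh2, Mdh1 and Mdh2 stand farthest right, and Pdk4 and Me1 sit at the zero line in all 3 panels.

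The pyruvate carrier passed edgeR's test in 0 of 18 comparisons, while DESeq2 called Mpc1 for hippocampus against cortex with acetate. For Mpc1, the smaller carrier subunit, whole brain gave 14.6, 15.1 and 14.2 CPM in the 3 SPF libraries and 14.3, 15, 14, 13.5 and 16.4 CPM in the 5 GF libraries, values that overlapped. As in all lists of library values here, the libraries of a group stand in the order of their labels, which carries no meaning. Cortex gave 44.7, 44.6, 66.4 and 66.5 CPM under SPF, 53.4, 55.1, 58.7 and 46.6 CPM in GF mice and 49.4, 52.2, 55.6 and 50.1 CPM with acetate. WT hippocampus gave 58.8, 67, 71.5 and 80.9 CPM under SPF, 61, 48.5 and 61.8 CPM in GF mice and 58.3, 81.8, 61.1 and 71 CPM with acetate, and 5xFAD hippocampus 69.3, 77.2, 61.7 and 70.2 CPM under SPF, 68.3, 57.3 and 55.3 CPM in GF mice and 74.5, 77.8, 63.8 and 73.4 CPM with acetate. Mpc1 was read higher in hippocampus than in cortex of SPF mice (log2 0.34, SE 0.13, adjusted p 0.25) and with acetate (log2 0.38, SE 0.13, adjusted p 0.14), and neither passed in edgeR. Over the annotated exons of Mpc1, 23.1% overlap 4930506C21Rik on the opposite strand. Whether counting used strand is not given in the sources used here, so the counts of Mpc1 over this stretch are uncertain. Mpc2, the other subunit, spanned 31.4 to 41.1 CPM in whole brain, 26 to 43.7 CPM in cortex and 35.1 to 59.7 CPM in hippocampus. Its largest difference was log2 0.44 between hippocampus and cortex in SPF mice (95% interval 0.10 to 0.79, adjusted p 0.22).

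The 5 components of the pyruvate dehydrogenase complex gave 90 tests, of which 15 had an unadjusted p under 0.05 and 0 passed in edgeR. Pdha1, the catalytic alpha subunit that the kinases phosphorylate, measured 46, 55.1 and 46.5 CPM in the 3 SPF libraries and 58.5, 51.9, 52.9, 55.6 and 52.1 CPM in the 5 GF libraries of whole brain. In cortex it measured 64.5, 50.2, 32.1 and 28.9 CPM under SPF, 41.8, 50.5, 55 and 40.7 CPM in GF mice and 55.2, 43.8, 40.1 and 51.6 CPM with acetate, and the SPF libraries alone spanned the range of the other 8. WT hippocampus had 40.5, 29.7, 38.5 and 35.4 CPM under SPF, 35.1, 29.1 and 30 CPM in GF mice and 44.7, 39.6, 46.4 and 38.8 CPM with acetate. There every acetate library lay above every GF library, by log2 0.42 (SE 0.17, adjusted p 0.33). In 5xFAD hippocampus it measured 30.9, 32.5, 42.7 and 34.4 CPM under SPF, 44.5, 29.7 and 42.5 CPM in GF mice and 31.2, 33.5, 44.9 and 35.4 CPM with acetate, with overlap among all 3 conditions. Pdha1 had its smallest adjusted p, 0.24 in edgeR, for hippocampus against cortex in GF mice. There every WT hippocampal library lay below every cortical library. The fit left out cortical library WT_528, which has no hippocampal partner. Under SPF and with acetate the regions overlapped. Over the 18 comparisons Pdha1 ranged over log2 -0.63 to 0.42. Map3k15 overlaps 16.1% of the annotated exon bases of Pdha1 on the opposite strand, which makes its counts uncertain in the way described for Mpc1.

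Dld, the dihydrolipoamide dehydrogenase shared by the pyruvate and alpha-ketoglutarate dehydrogenase complexes, had an unadjusted p under 0.05 in 10 of 18 comparisons and passed in 0 of them in edgeR. It is singled out after its values were seen. In WT hippocampus it stood at 79.7 to 104 CPM under SPF, 58.7 to 82.2 CPM in GF mice and 92.2 to 111 CPM with acetate. The acetate libraries all lay above the GF libraries (log2 0.50, SE 0.14, adjusted p 0.11), a difference that DESeq2 called. In 5xFAD hippocampus the ranges were 58.5 to 80.5 CPM under SPF, 83.5 to 94.4 CPM in GF mice and 81.5 to 109 CPM with acetate, so there the SPF libraries were the low ones and overlapped with neither of the others. The GF effect differed between 5xFAD and WT by log2 0.72 (SE 0.20), which did not pass when adjusted over all genes (adjusted p 0.57). Pdhb, Pdhx and Dlat, which encode the beta subunit, the binding protein and the acetyltransferase core, ranged over log2 -0.28 to 0.31 in all comparisons, with a smallest adjusted p of 0.29.

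Among the kinases, Pdk4 had almost no reads, with 0 counts in 39 of 42 libraries, among them all 12 of cortex, and a count of 0 allows up to 0.118 to 0.522 CPM depending on the library's depth (3 counts, counting error only). The exceptions were 3 counts (0.153 CPM) in whole-brain GF library 5, 1 count (0.04 CPM) in whole-brain GF library 3, and 12 counts (0.628 CPM) in 5xFAD GF hippocampus library FAD_527. Pdk4 was below the count filter and was not tested. In muscle and liver this kinase is known to rise with fasting, glucocorticoids and fatty acids. In the same libraries some glucocorticoid and FOXO-type genes were higher in GF than in SPF mice. They were 5 of the 11 tested in whole brain with 1 lower, 2 of 13 in cortex, 3 of 13 in WT hippocampus and 8 of 13 in 5xFAD hippocampus. Over all genes 1.99%, 1.71%, 0.727% and 1.82% passed, in the same order. A link of this list to Pdk4 was not tested. Examples of the higher genes are Ddit4 in whole brain (log2 4.07, SE 0.26) and Pik3ip1 in cortex (log2 2.51, SE 0.29), WT hippocampus (log2 2.84, SE 0.48) and 5xFAD hippocampus (log2 3.34, SE 0.48). The list had been seen to rise in these libraries before it was used here, so its direction is no independent evidence.

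Kinase transcripts were supplied by Pdk1, Pdk2 and Pdk3. Per kilobase, Pdk1, the isozyme known as a hypoxia-inducible target, made up 57.2% ± 5.08 of the 4 kinases in SPF cortex (SD, n = 4), with 26.9% ± 3.86 for Pdk2 and 15.9% ± 2.14 for Pdk3. Across the 9 regional groups the mean share of Pdk1 ran from 56.3% to 65.8%, and it led in each. In whole brain Pdk1 and Pdk3 were about level, at 36.9% ± 1.22 and 38.0% ± 1.41 under SPF (SD, n = 3), and with exon-union lengths Pdk3 led there, at 42.5% against 33.4%. No kinase passed in edgeR, while DESeq2 called Pdk2 for hippocampus against cortex in SPF mice and with acetate. In edgeR Pdk2 came nearest, with 31.1 CPM in cortex and 21.1 CPM in hippocampus of acetate-treated mice (log2 -0.59, SE 0.15, adjusted p 0.054). Pdk1 was read higher in 5xFAD than in WT microglia of GF hippocampus (193 against 149 CPM, log2 0.37, 95% interval 0.11 to 0.63, adjusted p 0.22). Pdk3 stood at 28.6 against 17.7 CPM for the same contrast with acetate (log2 0.69, 95% interval 0.11 to 1.26, adjusted p 0.24).

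**Figure D4:**
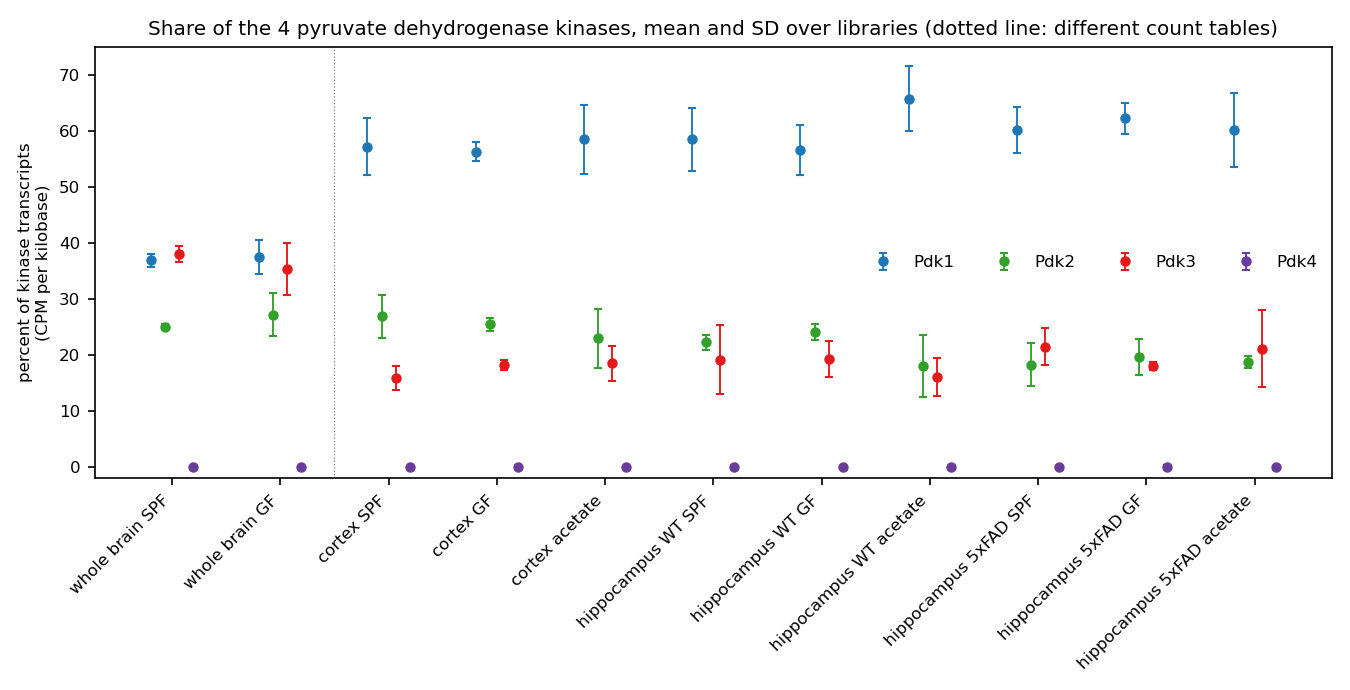
Share of each pyruvate dehydrogenase kinase in the summed CPM per kilobase of the 4 kinases (vertical axis, percent), as mean and SD over the libraries of each of the 11 groups; the dotted line separates the whole-brain table from the regional one. Pdk1 leads in every cortical and hippocampal group, at 56.3% to 65.8%, Pdk1 and Pdk3 are about level in whole brain, and Pdk4 lies at or near 0.

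The phosphatase genes gave 0 calls, and Pdp1 and Pdpr had standard errors of up to 0.54 and 0.51 on the log2 scale. Pdp1, a catalytic subunit, spanned 4.89 to 21.7 CPM in hippocampus, and its largest difference was log2 0.85 between hippocampus and cortex with acetate (95% interval 0.10 to 1.59, adjusted p 0.22). Pdp2, the other catalytic subunit, stood at 20.4 to 23.5 CPM in SPF cortex, 13.1 to 19.2 CPM in GF cortex and 13.1 to 20.1 CPM with acetate. Every SPF library lay above every GF and acetate library, and neither GF against SPF (log2 -0.46, SE 0.17, adjusted p 0.20) nor acetate against SPF (log2 -0.40, SE 0.17, adjusted p 0.62) passed. Pdpr, the regulatory subunit, ran from 11.3 to 45.7 CPM in hippocampus and ranged over log2 -0.64 to 0.68 between groups, with a smallest adjusted p of 0.33.

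Citrate synthase (Cs), which condenses acetyl-CoA with oxaloacetate, passed in 0 of 18 comparisons in edgeR. Whole brain gave 126, 132 and 123 CPM in the 3 SPF libraries and 121, 120, 147, 119 and 138 CPM in the 5 GF libraries. Cortex gave 159, 155, 130 and 102 CPM under SPF, 135, 135, 132 and 135 CPM in GF mice and 146, 141, 142 and 121 CPM with acetate. In these tissues the conditions overlapped, and the log2 differences lay between -0.02 and 0.03 with SEs of 0.09 to 0.12. WT hippocampus gave 110, 136, 121 and 86.1 CPM under SPF, 126, 113 and 110 CPM in GF mice and 106, 118, 123 and 104 CPM with acetate, and 5xFAD hippocampus 127, 113, 125 and 110 CPM under SPF, 116, 130 and 103 CPM in GF mice and 132, 123, 149 and 147 CPM with acetate. In cortex and WT hippocampus the SPF group spread most, and SPF library 4 was its lowest in both. Cs was read lower in hippocampus than in cortex in all 3 conditions, by log2 -0.27, -0.21 and -0.29 (SE 0.09, 0.10 and 0.09) for SPF, GF and acetate, and none passed in edgeR (adjusted p 0.19, 0.46 and 0.11). DESeq2 called the difference under SPF and with acetate.

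Aco1, the cytosolic aconitase that doubles as an iron-responsive RNA-binding protein, gave the largest difference of any call. In acetate-treated mice the cortical values were 71.4, 70.3, 63.4 and 61.1 CPM and the hippocampal values of the same animals, in the same order, 34.3, 44.2, 45.4 and 31.2 CPM. All 4 animals were lower in hippocampus and the groups did not overlap. The difference was log2 -0.79 (SE 0.14, adjusted p 0.014), a 1.74-fold lower level. In GF mice the cortical libraries had 53.1, 58.9, 46 and 60.6 CPM and the hippocampal ones 48.2, 40.3 and 36.3 CPM (log2 -0.40, SE 0.16, adjusted p 0.33). The first of these cortical libraries, WT_528, has no hippocampal partner and was left out of that fit. Under SPF they had 87.5, 68.9, 65.7 and 54.6 CPM in cortex and 65.2, 56.1, 75 and 49.4 CPM in hippocampus (log2 -0.17, SE 0.14, adjusted p 0.66). Whether the regional difference itself differed between conditions was not tested. Without animal WT_518, WT_523 or WT_525 the adjusted p of the acetate call was 0.066, 0.053 or 0.11, with log2 between -0.83 and -0.71. Border macrophage markers summed to 9.56 to 12.7 CPM in acetate cortex and 0.0668 to 8.76 CPM in acetate hippocampus, oligodendrocyte markers to 183 to 204 CPM and 139 to 153 CPM, and microglia markers to 38640 to 41638 CPM and 34511 to 37084 CPM, each without overlap. Of single markers in this contrast, Tmem119 (log2 -0.37, adjusted p 0.027) and Csf1r (log2 -0.43, adjusted p 0.0056) of microglia and the neuronal Snap25 (adjusted p 0.043) were lower in hippocampus. The 6 neuron markers summed to 1.27 to 6.86 CPM in cortex and 0.0507 to 1.4 CPM in hippocampus. The part of these markers in the result was not tested.

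Within WT hippocampus Aco1 also stood lower in GF and acetate-treated mice than in SPF mice, short of the threshold. The group of GF mice stood at log2 -0.55 from SPF in WT hippocampus (SE 0.16, adjusted p 0.12) and acetate at log2 -0.66 from SPF (SE 0.15, adjusted p 0.09), with all GF and acetate libraries below all SPF libraries. DESeq2 called both. In cortex GF against SPF gave log2 -0.34 (SE 0.13, adjusted p 0.25). In 5xFAD hippocampus Aco1 measured 53.6, 42, 49.6 and 55.4 CPM under SPF, 47.7, 45.4 and 46.2 CPM in GF mice and 49.5, 52.1, 47.7 and 55.6 CPM with acetate, which overlapped (GF against SPF log2 -0.10, SE 0.16), and the difference between the genotypes in this effect was log2 0.44 (SE 0.22, adjusted p 0.90). With acetate every 5xFAD hippocampal library lay above every WT one (31.2 to 45.4 CPM). Under SPF and in GF mice the genotypes overlapped, and Aco1 passed for none of these contrasts in edgeR. Whole brain gave 68.3, 69 and 80.7 CPM in the 3 SPF libraries and 75.7, 72.4, 79.3, 92 and 64.1 CPM in the 5 GF libraries, with no separation of the groups (log2 0.08, SE 0.11).

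Idh1 and Idh2 oxidise isocitrate to alpha-ketoglutarate with NADP+, Idh1 in the cytosol and Idh2 in mitochondria. Per kilobase Idh2 supplied 84.4% ± 1.45 of the pair in SPF cortex (SD, n = 4), and its mean share was between 81.0% and 84.5% in all regional groups. Idh2 was lower in 5xFAD than in WT microglia of GF hippocampus, with 176, 162 and 154 CPM in 5xFAD and 206, 228 and 258 CPM in WT mice. All 3 of the 5xFAD libraries lay below all 3 of WT. The difference was log2 -0.49 (SE 0.11, adjusted p 0.041), a 1.41-fold lower level. Under SPF the 5xFAD libraries had 186, 186, 223 and 206 CPM and those of WT 227, 215, 251 and 220 CPM (log2 -0.18, SE 0.10, adjusted p 0.57). With acetate they had 209, 223, 184 and 186 CPM in 5xFAD and 218, 238, 195 and 187 CPM in WT mice (log2 -0.07, SE 0.10, adjusted p 0.84). The genotype effect was not shown to differ between conditions, since the interactions were log2 -0.31 for GF against SPF (SE 0.15, adjusted p 0.90) and log2 0.42 for acetate against GF (SE 0.15, adjusted p 0.89).

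The Idh2 call was lost without most single libraries. Leaving out library WT_530, WT_532, FAD_526, FAD_527 or FAD_531 gave adjusted p of 0.13, 0.18, 0.096, 0.17 and 0.17, with log2 between -0.55 and -0.41. Other markers moved with the groups. Monocyte markers summed to 9.06 to 12.6 CPM in 5xFAD and 1.37 to 5.91 CPM in WT GF hippocampus, astrocyte markers to 468 to 472 CPM and 315 to 432 CPM, and microglia markers to 26501 to 26798 CPM and 28085 to 29642 CPM. Neutrophil markers stood at 226 CPM in WT_532. Ly6c2 among the monocyte markers and Gja1 among the astrocyte markers were at 0 in all 6 of these libraries. Their part in the result was not tested. In whole brain, cortex and WT hippocampus Idh2 overlapped between conditions. Whole brain gave 213, 191 and 183 CPM in the 3 SPF libraries and 184, 201, 213, 210 and 207 CPM in the 5 GF libraries, and cortex 232, 220, 210 and 221 CPM under SPF, 235, 249, 206 and 194 CPM in GF mice and 275, 250, 218 and 231 CPM with acetate, where no difference exceeded log2 0.14. Within 5xFAD hippocampus all GF libraries lay below all SPF libraries (log2 -0.27, SE 0.11, adjusted p 0.27) and below all acetate libraries (acetate against GF log2 0.27, SE 0.11, adjusted p 0.50).

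Idh1 came close to the threshold in whole brain, with 79.1, 96.5 and 92.9 CPM in the 3 SPF libraries and 114, 110, 134, 125 and 102 CPM in the 5 GF libraries. Every GF library lay above every SPF library (log2 0.39, SE 0.10, adjusted p 0.066), and DESeq2 called the difference. Cortex gave 56.8, 55.3, 43.9 and 60.5 CPM under SPF, 52.3, 45.2, 59.9 and 54.2 CPM in GF mice and 65.6, 56.9, 61.2 and 64.8 CPM with acetate, which overlapped for GF and SPF. WT hippocampus gave 63.6, 66.2, 74.1 and 64.9 CPM under SPF, 57.8, 72.9 and 38.7 CPM in GF mice and 79.4, 59.6, 60.2 and 59.8 CPM with acetate, and 5xFAD hippocampus 55.5, 62.7, 56.3 and 39.3 CPM under SPF, 57.9, 45.7 and 36.3 CPM in GF mice and 51.2, 58.4, 43.2 and 71.1 CPM with acetate. The hippocampal groups overlapped, and the GF minus SPF values there were log2 -0.23 in WT (SE 0.21) and -0.18 in 5xFAD (SE 0.21). The 3 subunits of the NAD-linked enzyme, Idh3a, Idh3b and Idh3g, had 0 of 54 tests under an unadjusted p of 0.05. Idh3g had the narrowest span of all members, from log2 -0.15 to 0.07 over the 18 comparisons, while Idh3a ran from -0.38 to 0.44.

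Ogdh, the catalytic component of the alpha-ketoglutarate dehydrogenase complex, was lower in hippocampus than in cortex of SPF mice. The cortical values of animals 1 to 4 were 230, 168, 171 and 141 CPM and the hippocampal values, in the same order, 145, 114, 161 and 72.3 CPM. All 4 animals were lower in hippocampus, though the groups overlapped. The difference was log2 -0.57 (SE 0.12, adjusted p 0.048), a 1.48-fold lower level, with the animal as a block. Without the block the adjusted p was 0.21. Leaving out animal 1, 2 or 4 gave adjusted p of 0.17, 0.27 and 0.19, and without animal 4, whose hippocampal library was shallow and had the lowest Ogdh of all, the difference was log2 -0.44. Erythroid markers summed to 71.9 CPM in SPF hippocampus library 3 and to at most 3.74 CPM in SPF cortex, and border macrophage markers to 20.2 to 34.8 CPM in cortex and 11.6 to 26.9 CPM in hippocampus. Astrocyte markers did not overlap, at 305 to 392 CPM in cortex and 232 to 304 CPM in hippocampus. Among them Gfap was at 0 in every WT SPF hippocampus library. The microglia marker Csf1r was lower in hippocampus (log2 -0.37, SE 0.06, adjusted p 0.022). The part of these markers in the result was not tested.

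The regional difference of Ogdh had the same sign in the other conditions and did not pass in edgeR, while DESeq2 called it with acetate. GF cortex had 183, 152, 172 and 182 CPM and GF hippocampus 143, 129 and 140 CPM (log2 -0.29, SE 0.14, adjusted p 0.44), with WT_528 again left out of the fit. With acetate, cortex had 179, 173, 169 and 181 CPM and hippocampus 162, 118, 140 and 121 CPM (log2 -0.38, SE 0.12, adjusted p 0.11). In both conditions the regions did not overlap. 5xFAD hippocampus gave 155, 134, 132 and 163 CPM under SPF, 195, 168 and 166 CPM in GF mice and 131, 145, 175 and 181 CPM with acetate, where the GF libraries lay just above the SPF libraries (log2 0.28, SE 0.18, adjusted p 0.62). Whole brain gave 135, 119 and 140 CPM in the 3 SPF libraries and 152, 152, 138, 118 and 118 CPM in the 5 GF libraries, and these overlapped.

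The other enzymes on the way to succinate changed in no comparison past the threshold. Dlst, the succinyltransferase core of the complex, ranged over log2 -0.36 to 0.46, with 4 unadjusted p under 0.05 and a smallest adjusted p of 0.18. Of the succinyl-CoA ligase subunits, the common alpha subunit Suclg1 ranged over log2 -0.25 to 0.23. The ADP-linked beta subunit Sucla2 was more abundant per kilobase than the GTP-linked Suclg2, at 66.0% ± 4.10 of the pair in SPF cortex (SD, n = 4) and between 58.4% and 74.4% over all groups. The lowest share was in acetate-treated 5xFAD hippocampus. There Suclg2 was read at 48.9 CPM against 36.8 CPM in WT (log2 0.40, 95% interval 0.10 to 0.71, adjusted p 0.18) and Sucla2 at 46.0 against 59.0 CPM (log2 -0.36, 95% interval -0.70 to -0.02, adjusted p 0.30).

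Malate dehydrogenases close the cycle in mitochondria (Mdh2) and carry reducing equivalents in the cytosol (Mdh1, of the malate-aspartate shuttle). Mdh1 was higher in GF than in SPF whole-brain microglia, with 268, 312 and 282 CPM in the 3 SPF libraries and 343, 333, 339, 347 and 344 CPM in the 5 GF libraries. The groups did not overlap. The difference was small and precise, at log2 0.25 (SE 0.06, adjusted p 0.048), a 1.19-fold higher level. It kept its sign without any 1 library, and passed only without SPF library 3, since leaving out SPF library 1 or 4 gave adjusted p of 0.20 and 0.15 and leaving out GF library 1, 2, 3, 4 or 5 gave 0.094, 0.061, 0.056, 0.10 and 0.082. Neutrophil markers were high in GF library 4 (173 CPM) and at most 0.258 CPM under SPF. Without that library Mdh1 differed by log2 0.24. Microglia markers summed to 42704 to 43613 CPM under SPF and 40432 to 42307 CPM in GF mice, without overlap, and among them Cx3cr1 was lower in GF mice (log2 -0.19, SE 0.04, adjusted p 0.029). Their part in the result was not tested.

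In the other tissues Mdh1 did not pass. Cortex gave 153, 139, 171 and 163 CPM under SPF, 158, 163, 181 and 168 CPM in GF mice and 192, 165, 157 and 154 CPM with acetate (GF against SPF log2 0.10, SE 0.10, adjusted p 0.74). WT hippocampus gave 148, 155, 169 and 189 CPM under SPF, 134, 148 and 157 CPM in GF mice and 143, 174, 154 and 147 CPM with acetate (log2 -0.16, SE 0.11, adjusted p 0.61), and 5xFAD hippocampus 164, 168, 156 and 152 CPM under SPF, 169, 133 and 140 CPM in GF mice and 169, 175, 142 and 162 CPM with acetate (log2 -0.11, SE 0.11, adjusted p 0.82). Those mice were older than the whole-brain mice and were counted in another table, and no test compared the tissues. Mdh2 in whole brain went from 175 to 182 CPM under SPF to 189 to 206 CPM in GF mice without passing (log2 0.14, SE 0.06, adjusted p 0.28). Fh1, the fumarase, had 0 unadjusted p under 0.05 in 18 comparisons and ranged over log2 -0.26 to 0.30.

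**Figure D5:**
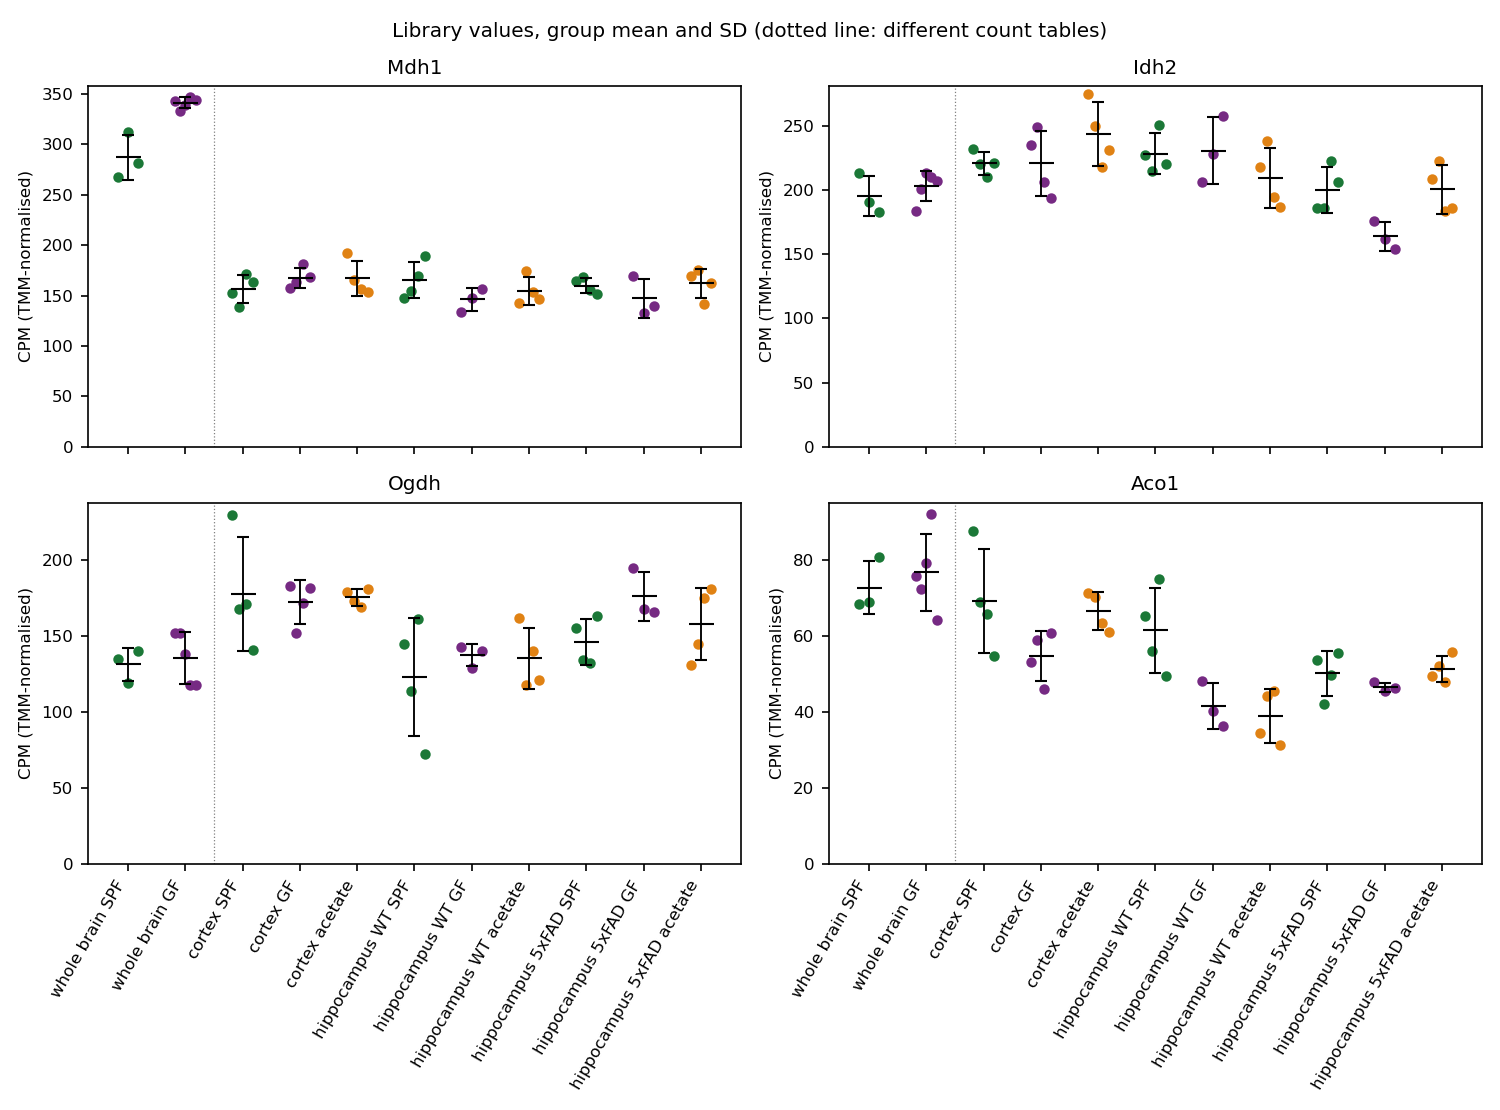
Values of the 4 members that passed a test, Mdh1, Idh2, Ogdh and Aco1, in CPM after TMM scaling (vertical axes, from 0) for every library (points) of the 11 groups, with the group mean and SD (black); the dotted line separates the count tables, across which levels were not compared. The 5 whole-brain GF libraries sit between 333 and 347 CPM of Mdh1, above SPF at 268 to 312 CPM, and acetate-treated hippocampus sits at 31.2 to 45.4 CPM of Aco1, below acetate-treated cortex at 61.1 to 71.4 CPM.

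Of the genes by which carbon leaves the cycle, the mitochondrial malic enzyme Me2 had 0 unadjusted p under 0.05 in 18 comparisons. Its cytosolic counterpart Me1 had 0 counts in 31 of 42 libraries, reached at most 1.35 CPM in a hippocampal library, and was not tested. Pck2, the mitochondrial phosphoenolpyruvate carboxykinase, did not pass. Its values were 75.1 to 90.9 CPM in SPF cortex and 79.1 to 119 CPM in GF cortex (log2 0.31, SE 0.13, adjusted p 0.27). In WT hippocampus they were 61.0 to 78.7 CPM under SPF and 80.3 to 103 CPM in GF mice, without overlap (log2 0.36, SE 0.15, adjusted p 0.33). With acetate they were 63.4 to 100 CPM, spanning both.

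To show the regulatory sequence beside the 4 transcripts that passed, the 250 bases before the first listed RefSeq start of each gene are given, 5′ to 3′ on the gene's own strand (GRCm38.p6; Mdh1 chr11:21571935-21572184, minus strand; Idh2 chr7:80115351-80115600, minus; Ogdh chr11:6291347-6291596, plus; Aco1 chr4:40143015-40143264, plus). Ogdh had 6 listed windows and the other genes 1 each. Capitals mark the letters TGACGTCA, the cAMP-response element bound by CREB.
Mdh1: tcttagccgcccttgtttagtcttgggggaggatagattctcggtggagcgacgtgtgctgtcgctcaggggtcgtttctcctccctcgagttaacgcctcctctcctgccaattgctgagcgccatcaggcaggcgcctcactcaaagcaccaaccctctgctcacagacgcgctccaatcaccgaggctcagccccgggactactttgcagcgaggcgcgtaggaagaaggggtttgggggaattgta
Idh2: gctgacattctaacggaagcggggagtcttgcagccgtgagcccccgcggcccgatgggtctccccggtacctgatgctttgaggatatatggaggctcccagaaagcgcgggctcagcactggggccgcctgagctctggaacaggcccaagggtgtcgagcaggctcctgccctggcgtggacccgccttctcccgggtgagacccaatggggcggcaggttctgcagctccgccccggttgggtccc
Ogdh: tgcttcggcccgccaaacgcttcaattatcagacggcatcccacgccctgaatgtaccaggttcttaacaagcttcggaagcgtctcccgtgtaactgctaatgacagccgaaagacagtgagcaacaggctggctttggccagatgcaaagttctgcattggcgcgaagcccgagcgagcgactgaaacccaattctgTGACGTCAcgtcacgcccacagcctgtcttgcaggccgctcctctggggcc
Aco1: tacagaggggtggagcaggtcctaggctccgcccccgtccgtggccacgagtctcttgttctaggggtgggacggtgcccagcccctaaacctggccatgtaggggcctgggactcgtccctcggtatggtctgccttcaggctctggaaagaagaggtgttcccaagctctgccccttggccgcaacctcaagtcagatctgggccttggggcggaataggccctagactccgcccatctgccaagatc

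Such windows were found for 29 of the 32 members. Over the first listed window of each gene the median GC content was 62.4%, against 52.0% for 27025 genes, and 26 of the 29 lay above the latter. Words were searched in every listed window of a gene, and a gene counted if any of its windows held the word. TATAAA stood in 0 of 29 members and in 14.3% of all genes. TGACGTCA stood in 3 of 29 (10.3%; Mdh2, Ogdh and Pdpr) and in 1.77% of all. All words were searched on both strands. The others were the NRF1 palindrome, in 1 of 29 (Sucla2) and 4.23% of all, AAGGTCA (the core of the estrogen-related receptor site), in 0 and 4.70%, and CCGGAAGT (ETS), in 0 and 3.23%. No member held more than 1 of these words. A match is only a description of the letters. Of the 3 genes with TGACGTCA, Ogdh passed in 1 comparison and Mdh2 and Pdpr in 0.

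The set leaves out succinate dehydrogenase and the reactions beside the cycle, so 29 such genes were read alongside, of which 26 were tested. Sdha, Sdhb, Sdhc and Sdhd, which form the dehydrogenase, were between log2 -0.33 (Sdha, hippocampus against cortex in SPF mice) and 0.32 (Sdhc) and passed in 0 of 72 tests, with a smallest adjusted p of 0.068. In whole brain 2 of the 26 were higher in GF than in SPF mice, beside 1.99% of all genes past the threshold. They were Nnt, the mitochondrial transhydrogenase (log2 1.3, SE 0.10, adjusted p 1.2e-05), and Ldhb, a lactate dehydrogenase subunit (log2 0.24, SE 0.05, adjusted p 0.036). The median of the 26 was log2 0.06. Nnt was also higher in GF than in SPF mice in cortex (log2 0.71, SE 0.12, adjusted p 0.0048) and in WT hippocampus (log2 0.91, SE 0.17, adjusted p 0.013). With acetate it also exceeded SPF, by log2 0.86 in cortex and 0.97 in WT hippocampus. In 5xFAD hippocampus 0 of the 26 passed for GF or for acetate against SPF, where Nnt stood at log2 0.63 (adjusted p 0.051) and 0.70 (adjusted p 0.13). The C57BL/6J substrain carries a deletion in Nnt, and the labels give C57BL/6 for every group with no substrain. Whether substrain differed between GF and SPF mice was not tested, for Nnt or for any other GF against SPF value, Mdh1 included.

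Further adjacent genes passed in comparisons other than GF against SPF. D2hgdh, which oxidises D-2-hydroxyglutarate to alpha-ketoglutarate, was lower in cortex with acetate than in GF mice (log2 -0.87, SE 0.18, adjusted p 0.028) or SPF mice (log2 -1.38, SE 0.18, adjusted p 0.0017). In GF hippocampus 2 of 26 were higher in 5xFAD than in WT mice, beside 0.756% of all genes past the threshold. They were the aspartate aminotransferase Got1 (log2 1.0, SE 0.22, adjusted p 0.033) and the acetyl-CoA carboxylase Acaca (log2 1.66, SE 0.37, adjusted p 0.033). With acetate 3 of 26 were higher, beside 2.51% of all genes past the threshold. They were Got1 (log2 1.04), Acaca (log2 2.30) and Got2 (log2 0.59), with adjusted p of 0.0035, 0.00035 and 0.049. Acly, the ATP citrate lyase that splits citrate exported from mitochondria into acetyl-CoA and oxaloacetate, was lower in hippocampus than in cortex by log2 -0.49 in SPF mice and -0.53 with acetate (SE 0.10 each, adjusted p 0.043 and 0.019).

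Fatty acid oxidation feeds acetyl-CoA into the cycle. Of 18 genes of this pathway and of PPAR response, 15 or 16 were tested. The mitochondrial carrier Ucp2 was the 1 gene that passed in each GF against SPF comparison with a call, at log2 0.53 in whole brain, 0.82 in cortex and 1.13 in 5xFAD hippocampus (adjusted p 0.0015, 0.019 and 0.0014). In cortex Ucp2 was lower with acetate than in GF mice (log2 -0.88, SE 0.17, adjusted p 0.018). In GF hippocampus Cpt1a, the carnitine palmitoyltransferase that admits long-chain fatty acids, and the lipid droplet protein Plin2 were higher in 5xFAD than in WT mice (log2 0.96 and 0.90, adjusted p 0.024 and 0.045). With acetate Plin2 and Ucp2 were higher in 5xFAD than in WT hippocampus (log2 0.97 and 0.87, adjusted p 0.0041 and 0.0048). In WT hippocampus 0 of 16 passed for GF against SPF. Over all genes 1.99%, 1.71%, 0.727% and 1.82% passed for GF against SPF in whole brain, cortex, WT hippocampus and 5xFAD hippocampus. The medians of this list for GF against SPF were log2 0.23, 0.11, -0.04 and 0.02 in whole brain, cortex, WT hippocampus and 5xFAD hippocampus, against 0.003, -0.001, 0.000 and -0.003 for all genes.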

How the data were processed

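RNA-seq was measured in 42 libraries of sorted mouse microglia. The authors deposited raw read counts per gene in 2 tables, which were used as deposited. Per the submitters' processing notes, STAR 2.5.2b and featureCounts 1.5.1 were used. The same notes name the build GRCh38, a human build, although the tables hold mouse symbols, so gene lengths, overlaps and sequences here come from GENCODE M21 and RefSeq on GRCm38 by symbol. How multi-mapping reads and strand were handled is not given in the sources used here. Every column matched a library, and 0 columns were left over.

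Groups were taken from the labels. Counts passed edgeR's filterByExpr (minimum count 10), were scaled by TMM and tested with edgeR 4.0.16 (R 4.3.3) quasi-likelihood fits in 4 models, with Benjamini-Hochberg adjustment over all genes of each comparison (threshold 0.05). The models were whole brain (8 libraries, 11332 genes), cortex (12 libraries, 15113 genes), hippocampus (22 libraries, 17063 genes) and regions (22 libraries of 11 WT animals with both regions, 16706 genes). The region model had the animal as a block, since the labels give both regions the same animal numbers. Same-animal deviations correlated at r 0.009 to 0.358, over 0.1 in 9 of 11 pairs. Standard errors are the absolute log2 fold change over the square root of F. Alternatives were DESeq2 1.42.0, RLE size factors, no count filter, a filter of at least 5 CPM, the block, fits on the compared groups alone, and leaving out shallow or single libraries. The procedure was also run on counts simulated from its own model, with changes larger than those of the members that passed, so that run does not cover changes of their size.

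The members and all gene lists were chosen with earlier results of these data known. Library values are given for each member that passed in at least 1 comparison and for Pdk4, Cs, Ogdh, Idh1, Pdha1 and Mpc1, other members by ranges, and at most 4 genes with the smallest p of each further list are named. Replicates within a group differed by more than counting noise, with chi-square per degree of freedom of 10.09 to 60.25 over 61 pairs. The labels do not say whether libraries of the whole-brain table are separate animals, so p-values measure only the spread between libraries. Total counts per library limit precision, and limits for counts of 0 (3 counts) cover counting error only.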

Additional observations from a re-analysis of the deposited data

Results flagged for a closer look

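A single library stood apart from the rest of its group in 2 of the 65 combinations of gene and group examined (Dixon's test at the 95% level), which flags about 1 in 20 groups by chance. Idh1 measured 79.4 CPM in acetate-treated WT hippocampus library WT_518, while the other 3 libraries of that group lay between 59.6 and 60.2 CPM. WT_518 differed from these 3 beyond Idh1. It had 16607 genes detected, against 19142 to 19483 in them. Its chi-square per degree of freedom against them was 55.87 to 60.25, against 22.59 to 29.38 among them. Pdk4 measured 0.153 CPM, from 3 counts, in whole-brain GF library 5, while the other 4 lay between 0 and 0.04 CPM.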

How the results depend on the processing

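Of the 14 comparisons with 0 members past the threshold, 11 had 0 under every alternative run. DESeq2 called 1 member in each of the other 3, all in WT hippocampus: Aco1 for GF against SPF, Dld for acetate against GF and Aco1 for acetate against SPF. In whole brain the count of 1 (Mdh1) became 2 with DESeq2, 2 with no filter, 2 with the 5 CPM filter (Mdh1 and Idh1), 0 with the replicate block and 0 to 1 without single libraries. For 5xFAD against WT in GF hippocampus the count of 1 (Idh2) became 0 with no filter (adjusted p 0.10), 0 without WT GF library WT_530 and acetate library WT_518, which had few genes detected (adjusted p 0.11), 0 with only the compared groups (adjusted p 0.11) and 0 to 1 without single libraries. For hippocampus against cortex in SPF mice the count of 1 became 3 with DESeq2 (Ogdh, Cs and Pdk2), 0 with no replicate block and 0 to 1 without single animals. With acetate it became 5 with DESeq2 (Aco1, Cs, Ogdh, Pdk2 and Mpc1), 2 with no filter, 2 with the 5 CPM filter and 0 to 1 without single animals. The cause of these changes was not tested.

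Over the alternatives the adjusted p ran from 0.0033 to 0.20 for Mdh1, 0.0026 to 0.18 for Idh2, 0.00035 to 0.27 for Ogdh and 2.3e-05 to 0.11 for Aco1, and no difference changed sign. The replicate block in whole brain gave Mdh1 log2 0.26 (adjusted p 0.20). Its numbers share no animal, and same-numbered libraries correlated at r -0.04 to -0.01 over 3 pairs. Counts over all genes moved by over 1.5 times with DESeq2 in all 18 comparisons. At this depth Pdk4 and Me1 could not be tested.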
